A study of Mus musculus with 2 samples.

Results

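Krüppel-like factors (KLF) and Sp proteins form 1 family of transcription factors that bind GC-rich DNA through zinc fingers at their C-terminal end. Chromatin accessibility around 10 of their genes, Sp1, Sp3, Klf2, Klf3, Klf4, Klf6, Klf7, Klf10, Klf11 and Klf13, was compared between Brd9 knockout and control blood progenitors of the mouse fetal liver. Members were the ATAC-seq regions that overlapped 1 of these genes or lay within 40 kb of it, after the peak lists of both libraries had been merged wherever peaks shared at least 1 bp. There were 40 such regions among 29076 in all. No region belonged to more than 1 of the genes. Regions were taken by position alone, but the genes had been chosen with earlier results of these data known. The farthest region inside the limit lay 37732 bp from Klf4 (control-only, 18 reads), and the nearest outside it lay 40387 bp from Sp3 (control-only, 44 reads).

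ATAC-seq marks open chromatin by letting a transposase cut into it. The knockout library (replicate 2) came from CD45.2(+) Vav1-iCre Brd9fl/fl cells and the control library (replicate 1) from CD45.2(+) Brd9fl/fl cells, so both carried floxed Brd9 alleles on the C57BL/6 strain and only the first carried Cre. Both were sorted from livers of stage E14.5 as cells without lineage markers and with c-Kit, 150000 cells a library. The Vav1 promoter drives Cre in blood cells, where it deletes the floxed part of Brd9, a subunit of the non-canonical BAF chromatin remodeller. Any pooling of embryos is unstated. With 1 library per genotype there was no replicate check and no test, the presence of Cre and the loss of Brd9 cannot be told apart, and every interval below covers counting error only.

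Sp1 and Sp3 are expressed in nearly all cells and bind the GC box, a run of G and C bases common in promoters. KLF proteins prefer the related CACCC box. Klf1, the founding erythroid member, switches on red cell genes, and several relatives take part in blood development: Klf3 represses through the corepressor CtBP, Klf10, Klf11 and Klf13 through Sin3a, while Klf2, Klf4, Klf6 and Klf7 can activate their targets.

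The 250 bases before the gene start are shown for 4 genes, since each lies in or next to an accessible region described below: Klf2 had the lowest and Klf6 the highest knockout to control ratio at its start, Klf4 the fewest reads and Sp1 the most. Capitals mark the KLF core CACCC, the GC box GGGCGG and, in Klf2, CTAAATTTAG, a match to the site of MEF2 factors, all read on both strands. Sequences are from RefSeq, build GRCm38.p6 (coordinates as in mm10), and are written 5′ to 3′ along the gene.
Klf2 (chr8:72318812-72319061, + strand): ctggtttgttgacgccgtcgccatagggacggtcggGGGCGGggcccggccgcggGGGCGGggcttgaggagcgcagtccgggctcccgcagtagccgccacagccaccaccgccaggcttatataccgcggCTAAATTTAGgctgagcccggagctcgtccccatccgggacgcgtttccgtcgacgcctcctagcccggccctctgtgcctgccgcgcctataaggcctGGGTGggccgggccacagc
Klf4 (chr4:55532476-55532725, - strand): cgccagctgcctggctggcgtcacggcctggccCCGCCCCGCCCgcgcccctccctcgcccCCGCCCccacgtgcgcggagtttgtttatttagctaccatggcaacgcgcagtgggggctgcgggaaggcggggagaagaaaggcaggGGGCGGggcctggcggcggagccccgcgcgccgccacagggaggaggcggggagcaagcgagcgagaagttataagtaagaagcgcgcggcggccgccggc
Klf6 (chr13:5861239-5861488, + strand): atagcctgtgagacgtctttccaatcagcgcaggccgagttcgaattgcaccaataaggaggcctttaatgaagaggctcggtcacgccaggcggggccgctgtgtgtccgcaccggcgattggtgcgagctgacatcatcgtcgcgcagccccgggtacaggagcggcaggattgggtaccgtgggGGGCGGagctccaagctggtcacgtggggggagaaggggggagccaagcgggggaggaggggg
Sp1 (chr15:102406066-102406315, + strand): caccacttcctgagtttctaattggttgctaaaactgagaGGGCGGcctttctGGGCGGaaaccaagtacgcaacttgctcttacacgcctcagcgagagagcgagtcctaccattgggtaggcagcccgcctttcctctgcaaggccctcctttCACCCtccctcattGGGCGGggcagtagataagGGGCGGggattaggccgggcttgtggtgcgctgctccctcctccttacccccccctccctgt

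RefSeq held promoter windows of 300 bases (250 before to 50 after the start) for 9 of the 10 genes, and 10 windows in all, as Sp3 had 2; Klf10 had none. GGGCGG was found in all 10 windows, against 35.7% of 32851 mouse promoter windows of the same length. CACCC was found in 6 of the 10, in Klf2, Klf3, Klf7, Klf13, Sp1 and 1 window of Sp3, against 57.5% of all windows. CCAAT, a further common promoter element, was in 5 of the 10, against 37.4%, and it overlapped a GC box in Sp1. Member windows were rich in G and C, with a median of 70.7% against 52.7% over all windows. CTAAATTTAG lay at positions -118 to -109 of Klf2, counting the first base of the gene as 0, and was held by 13 of the 32851 windows, or 0.0396%; this word was searched after the Klf2 promoter had been read. A match of letters does not show that a factor binds there.

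The knockout list held 22348 peaks and the control list 25330. Levels are given as summit reads, the number of extended reads over the highest point of a peak, recovered from the deposited values. Their median was 28 in the knockout list and 37 in the control list, and the depth of the knockout library, judged by background reads, was 0.640 of that of the control. The scaled ratio of a region sets its knockout reads over its control reads and corrects for that depth. A summit is a single point, so its level is not a sum over the length of the region. In a bulk library, a site open in fewer cells and a site less open in each cell cannot be told apart. Of 6 marker genes of the sorted cells, Kit, Myb, Runx1 and Tal1 had a region within 1 kb of a gene end in both lists and Cd34 and Gata2 in neither. Regions farther from the ends of marker genes were not counted here, so absence at a gene end does not mean a locus without regions. The scaled ratios of Kit (0.931, 0.674 to 1.28), Myb (0.781, 0.463 to 1.29) and Runx1 (0.768, 0.479 to 1.21) were below 1, with intervals that included 1. The lowest ratio was at Tal1, a blood stem cell and erythroid factor gene with 61 reads in the knockout and 214 in the control (0.445, 0.329 to 0.594). Tal1 also had a gene-end region in the control list alone, with 13 reads. Of 4 erythroid genes, Klf1 and Epor (0.834, 0.698 to 0.994) had one in both lists, Slc4a1, the red cell anion exchanger gene, in the control list alone with 62 reads, and Gata1 in neither. Summed over gene-end regions, the erythroid genes had 307 reads in the knockout and 614 in the control, and the genes of the sorted cells 181 and 447. These sums are not scaled for the lower depth of the knockout library, and a region absent from a list adds nothing to its sum. None of the 3 hepatocyte, 2 lymphocyte or 2 macrophage genes had such a region in either list. Of 2 endothelial genes, Kdr had 1 in each list, at opposite ends of the gene, with 17 reads in the knockout and 15 in the control, and Cdh5 had none. The part of these marker differences in the results below was not tested.

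All 10 genes had exactly 1 region at a gene end (within 1 kb), and each of these was present in both lists (100%, 95% interval 69.2 to 100), against 82.4% of all 12801 gene-end regions, a share inside that interval. Scaled ratios ran from 0.850 at Klf2 to 1.40 at Klf6, with 6 above 1 and 4 below. The median log2 ratio was 0.08 (SD 0.22 across the 10 regions), beside a median of 0.01 and an SD of 0.39 over all 10552 shared gene-end regions. None reached a ratio of 2 or of 0.5, sizes found at 1.36% and 0.881% of all shared gene-end regions. The interval lay above 1 at 2 of the 10, Klf6 and Sp1, and below 1 at none, against 8.85% and 7.47% of all shared gene-end regions. The ratios spread less than those of all gene ends. These include weaker sites, and the part of site strength in the smaller spread was not tested.

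**Figure D1:**
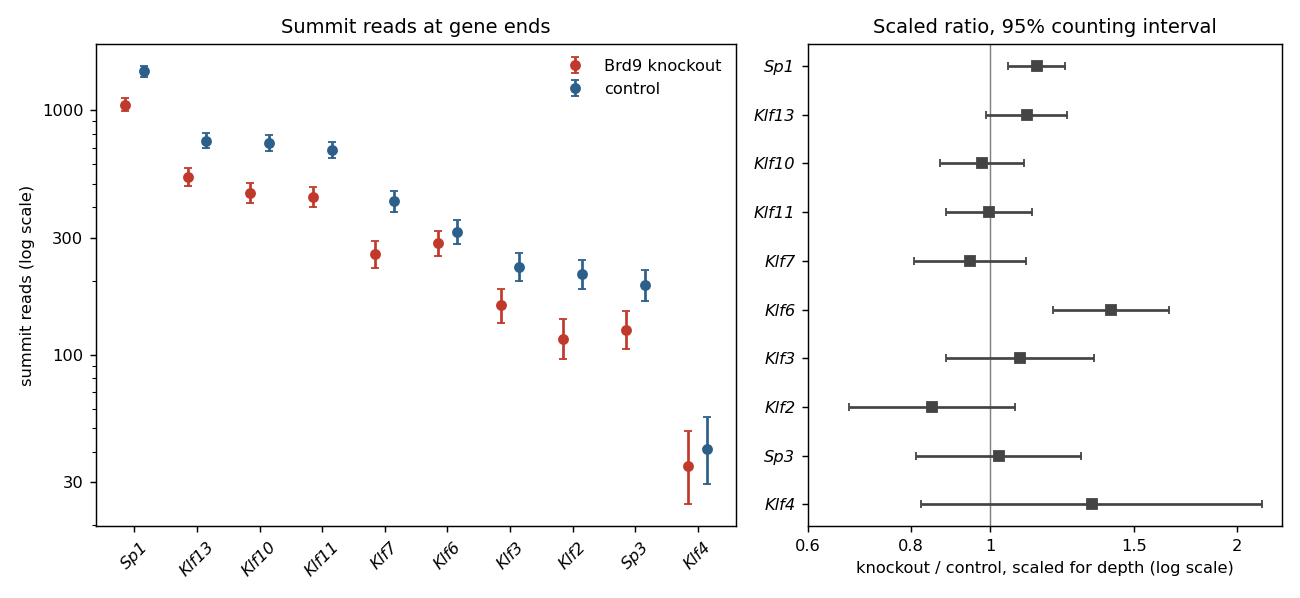
Left, summit reads (log scale) at the gene-end region of each gene in the knockout (red) and control (blue) library, with exact Poisson 95% intervals; right, the scaled ratio of knockout over control (log scale) with its exact conditional binomial 95% interval. Sp1 is highest with 1051 and 1440 reads and Klf4 lowest with 35 and 41, and only the intervals of Klf6 and Sp1 lie above 1.

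The Sp genes stood far apart from each other. At Sp1 (chr15:102405331-102406396, mm10, at the gene's start), there were 1051 summit reads (95% interval 988 to 1117) in the knockout and 1440 (1367 to 1516) in the control. Both values ranked 9 in their list, and the scaled ratio was 1.14 (1.05 to 1.24). The summit lay 431 bases before the gene start in the knockout and 437 in the control, upstream of the bases printed above. At Sp3 (chr2:72978976-72981010, which also touches the antisense gene Sp3os) there were 126 reads in the knockout and 192 in the control, a ratio of 1.02 (0.812 to 1.29). The knockout list broke this region into 2 peaks, where the control list had 1.

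After Sp1, the highest of these gene ends were those of Klf13, Klf10 and Klf11, the genes set together above by Sin3a. In the knockout the intervals of Klf13 (489 to 580) and Klf11 (400 to 483) did not overlap. A link between level and Sin3a recruitment was not tested. Klf13 (chr7:63938511-63939818) had 533 and 751 summit reads in the knockout and control library, a scaled ratio of 1.11 (0.990 to 1.24). The region at Klf10 (chr15:38299043-38301857), with 2815 bp the widest of the 40, also overlaps the lncRNA gene Gm35248. Klf10, a gene induced early by TGF-beta, had 459 and 733 reads there, a ratio of 0.978 (0.868 to 1.10). Its relative Klf11 (chr12:24650978-24652399) had 440 and 689, a ratio of 0.997 (0.883 to 1.13), and the summit fell on the same base in both lists, 606 bases inside the gene.

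Klf3, the CtBP-binding repressor, had 159 and 228 reads in the knockout and control library at its start (chr5:64802645-64803800), a scaled ratio of 1.09 (0.884 to 1.34). The region also overlaps Gm38457, so its reads cannot be given to Klf3 alone. A second shared region inside Klf3 (chr5:64811354-64812841) had 55 and 74 reads and a ratio of 1.16 (0.804 to 1.67). Another, 31490 bp from the gene, had 14 and 19 reads (1.15, 0.534 to 2.42). Klf3 and Klf7 were the only genes with several regions of which none was confined to 1 list.

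The activator genes covered the whole range of ratios. Klf6, a gene with roles in early blood and liver formation, had 285 reads in the knockout and 317 in the control at its start (chr13:5860771-5861546). Its scaled ratio of 1.40 (1.19 to 1.65) was higher than that of 91.0% of shared gene-end regions, and the ratio of the deposited folds, which set the summit over its local background, was 1.15. Klf7 (chr1:64121595-64122425) had 257 and 424 reads, a ratio of 0.947 (0.808 to 1.11), so that Klf6 stood above Klf7 in the knockout and below it in the control. The Klf7 region also overlaps the lncRNA gene Gm35880 and its promoter window. Klf2, which holds lymphocytes in a resting state and takes part in embryonic globin expression in mice, had 116 reads in the knockout and 213 in the control (chr8:72318570-72319575). The ratio of 0.850 (0.672 to 1.07) had an interval that included 1. Its summit lay 58 bases before the gene start in the knockout and 132 in the control, on either side of the MEF2-type word printed above. Klf4, a reprogramming and monocyte factor, had 35 and 41 reads (chr4:55532459-55533083; 1.33, 0.824 to 2.15), and the lncRNA gene Gm12506 shares that region.

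Ordered by summit reads in the knockout, the gene ends ran Sp1, Klf13, Klf10, Klf11, Klf6, Klf7, Klf3, Sp3, Klf2 and Klf4. In the control the order differed in 2 places, with Klf7 before Klf6 and Klf2 before Sp3. Intervals of neighbours overlapped between Klf13 and Klf10 and between Klf10 and Klf11 in both lists. They also overlapped among Klf3, Sp3 and Klf2 in both, and between Klf6 and Klf7 in the knockout but not in the control. Sp1 stood clear above its neighbour in both lists and Klf4 clear below. Ranked by reads, with tied peaks sharing the best rank, Klf4 was near the middle, in the top 42.7% of knockout and 47.3% of control peaks. By contrast, Sp1, Klf13, Klf10 and Klf11 were within the top 1.04% of the knockout and 0.707% of the control list.

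Away from these gene ends lay 30 regions, of which 13 were shared, 4 were in the knockout list alone and 13 in the control list alone. The knockout-only share was 13.3% (95% interval 3.76 to 30.7) and the control-only share 43.3% (25.5 to 62.6), against 18.2% and 33.1% of all regions that were not at gene ends. Counted over all 40 regions, the shares were 10% (2.79 to 23.7) and 32.5% (18.6 to 49.1), against 13.0% and 23.4% of all 29076 regions. Each of these intervals includes the share found over all regions. The knockout library was shallower. When only the 11174 best peaks of either list were kept, the control-only share near these genes was 5.56% (1 of 18 regions). The knockout-only share was 11.1% (2 of 18). Over all 12315 regions so obtained, these shares were 9.40% and 9.28%. This cut took out the weaker control peaks, whose −log10 q (significance after adjustment) was under 27.3. Of the control-only regions near these genes, only that upstream of Klf11, at 70.6, lay above this limit. The part of library depth in the control-only share was therefore not tested.

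**Figure D2:**
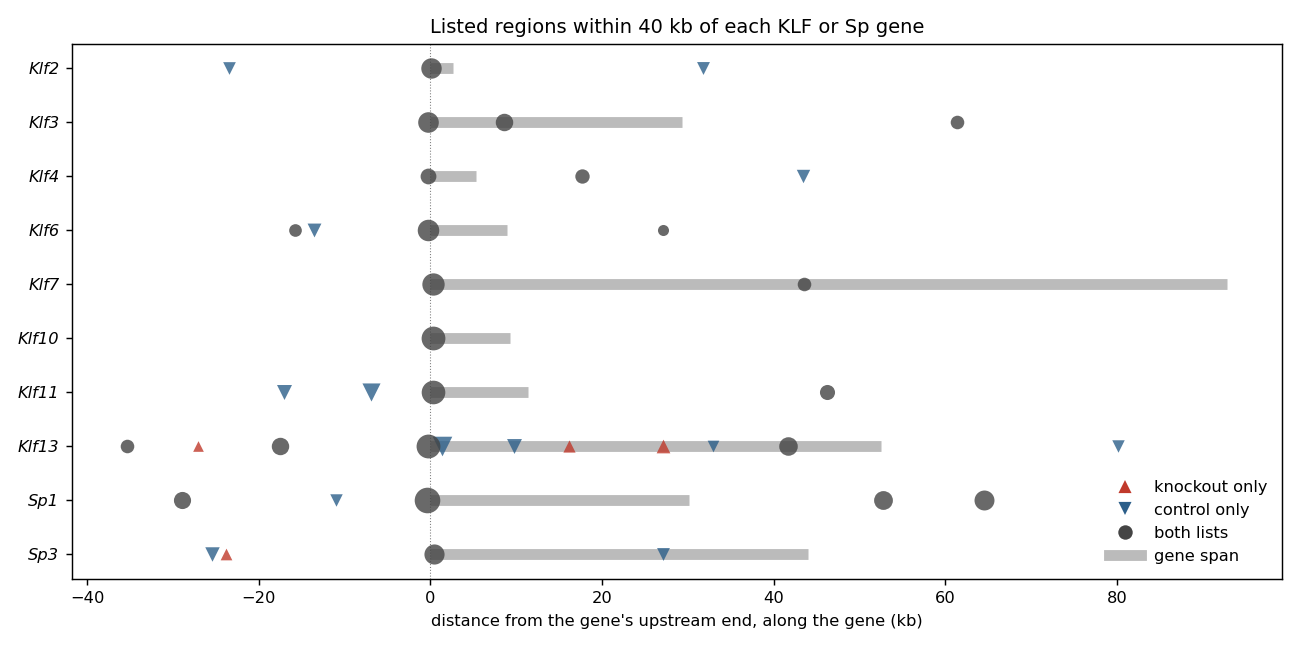
Position of each listed region along its gene, in kb from the gene's upstream end (for Klf10 from the end that holds its region); grey bars are gene spans, and symbols grow with summit reads (the higher library). Regions of the knockout list alone (red) lie at Klf13 and Sp3, and Klf13 holds 11 of the 40 regions.

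Ranked by the authors' −log10 q, the peak caller's significance after adjustment, the strongest of the 17 one-list regions lay near Klf11. This control-only region, 6661 bp upstream of the gene (chr12:24644152-24644710, 559 bp wide), had a −log10 q of 70.6 and 93 summit reads (95% interval 75.1 to 114) over a background of 6.28 in the control. At equal accessibility 59.6 reads would be expected at the depth of the knockout library, whose list holds peaks from 6 reads upwards. Of 2590 control regions with like reads (0.8 to 1.25 times), 2.32% were control-only, and of the 375 that were also of like width, 9.33% were. It was the control-only region that remained among equal numbers of top peaks. A second control-only region of Klf11, 16720 bp upstream and 16455 bp from Grhl1, had 31 reads (21.1 to 44.0). Of control regions with like reads 21.9% were control-only, and of those also of like width 16.996%.

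On the other side of Klf11, 34404 bp beyond its far end and 10343 bp from Rrm2, which encodes a ribonucleotide reductase subunit, a region moved the other way (chr12:24697186-24697911, overlapping the lncRNA genes Gm36129 and Gm52012). It had 32 summit reads in the knockout and 21 in the control, the only shared region of the 40 with more raw reads in the knockout. Its scaled ratio of 2.38 (1.33 to 4.34) was the 1 ratio of at least 2 among the 23 shared regions, a size found at 2.39% of all shared regions, and none of the 23 was at 0.5 or less, against 1.99%. The ratio of the deposited folds was 1.46 there, with local backgrounds of 1.77 reads in the knockout and 1.69 in the control.

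Klf13, which acts in T cells and in red cell maturation, had the most crowded surroundings, with 11 regions: 4 shared, 3 knockout-only and 4 control-only. This came to 8.30 regions per 100 kb of gene and flanks, against 1.12 to 4.54 for the other genes. The highest count of any one-list region among the 40 was 157 reads, in the control, 1260 bases into Klf13 (chr7:63937377-63937835). The background there was 76.1 reads, beside the strong gene start, so its deposited fold was 2.05. Of control regions like it in reads, 0.791% were control-only, and of the 49 also like it in width, 24.5%. A knockout-only region inside the gene (chr7:63911058-63912605, 1548 bp) had 20 reads (12.2 to 30.9), where 31.2 would be expected in the control at equal accessibility, and 10.98% of knockout regions with like reads were knockout-only, or 3.89% of the 180 that were also of like width. Inside the same gene, a control-only region of 405 bp (chr7:63928918-63929322) had 30 reads (20.2 to 42.8). Control-only regions made up 23.2% of control regions like it in reads, and 49.1% of those also like it in width.

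Of the shared Klf13 regions, that 17013 bp from the gene (chr7:63955928-63956956, over the promoter of the lncRNA gene Gm39024) had 30 reads in the knockout and 73 in the control. Its scaled ratio of 0.642 (0.405 to 0.994) was the only one of the 23 with an interval below 1, against 8.47% of all shared regions. The interval lay above 1 at 3 of the 23, namely Klf6, Sp1 and the region beyond Klf11, against 7.41%. Deep inside Klf13 (chr7:63896742-63897743), 66 and 109 reads gave a ratio of 0.946 (0.686 to 1.30). The Klf13 locus thus held regions with ratios on both sides of 1.

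**Figure D3:**
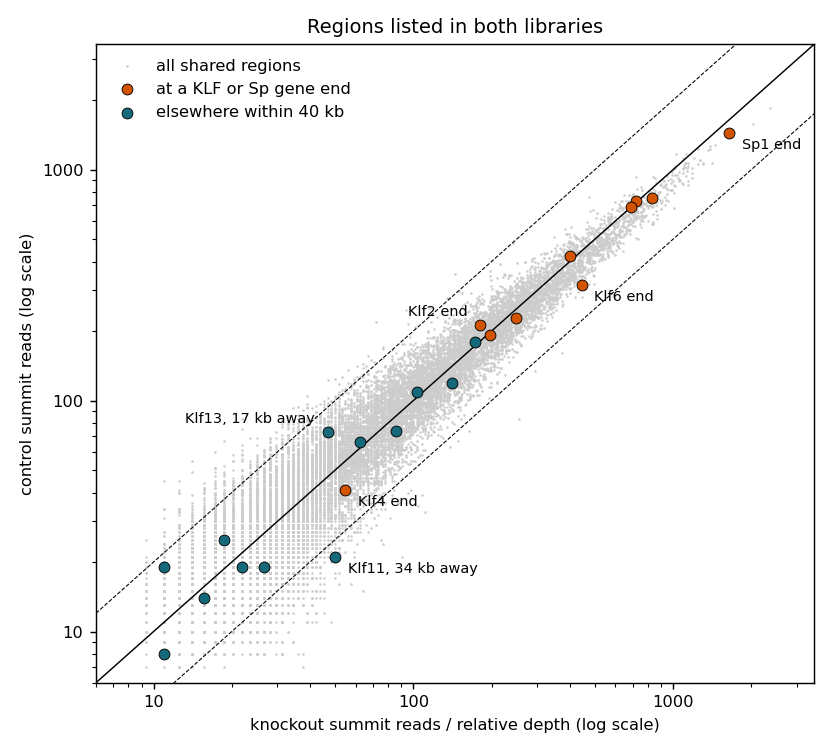
Control summit reads against knockout summit reads divided by the relative depth (both log scales) for all shared regions (grey), the 10 gene-end regions (orange) and the 13 other shared regions near KLF and Sp genes (teal); the solid line marks equality and dashed lines a ratio of 2 in either direction. The region beyond Klf11 lies outside the dashed lines, with 32 knockout and 21 control reads, and the others lie between them.

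The remaining loci were quieter. Sp1 had shared regions over the start of its neighbour Pcbp2 (chr15:102470223-102471380, 111 reads in the knockout and 180 in the control) and overlapping Prr13 (chr15:102458152-102460018, 90 and 119), with ratios of 0.963 (0.753 to 1.23) and 1.18 (0.888 to 1.57). On its other side, a region 28478 bp away (chr15:102376845-102377838), and only 9810 bp from the family gene Sp7, had 40 and 66 reads and a ratio of 0.946 (0.623 to 1.42). None of these 3 had an interval that left out 1. Around Sp3, a control-only region 25267 bp upstream had 26 reads (16.98 to 38.1) and was 377 bp wide, 1 bp more than the shortest peak of either list. Among control regions with like reads 29.7% were control-only, and among those also of like width 53.1%. A knockout-only region 23550 bp upstream of Sp3 had 10 reads. Further weak sites lay at other genes. Klf6 had a control-only region of 400 bp with 21 reads (13.0 to 32.1) 13392 bp upstream. For that region, the share of like control regions that were control-only was 40.2% by reads and 58.7% by reads and width. Inside Klf7, a weak region (chr1:64078462-64079082), which overlaps the promoter window of Gm13748, had 7 reads in the knockout and 19 in the control. Its ratio of 0.575 (0.204 to 1.43) was the lowest of the 23. Klf2 had no shared region apart from its start; its 2 control-only regions had 14 and 15 reads. Downstream of Klf4, where the nearest other protein-coding gene was Rad23b, a shared region 11850 bp away had 12 and 25 reads (0.750, 0.343 to 1.55) and a control-only region 37732 bp away had 18. At such counts absence from a list is common, since 47.9% of control regions with about 18 reads had no counterpart in the knockout list.

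**Figure D4:**
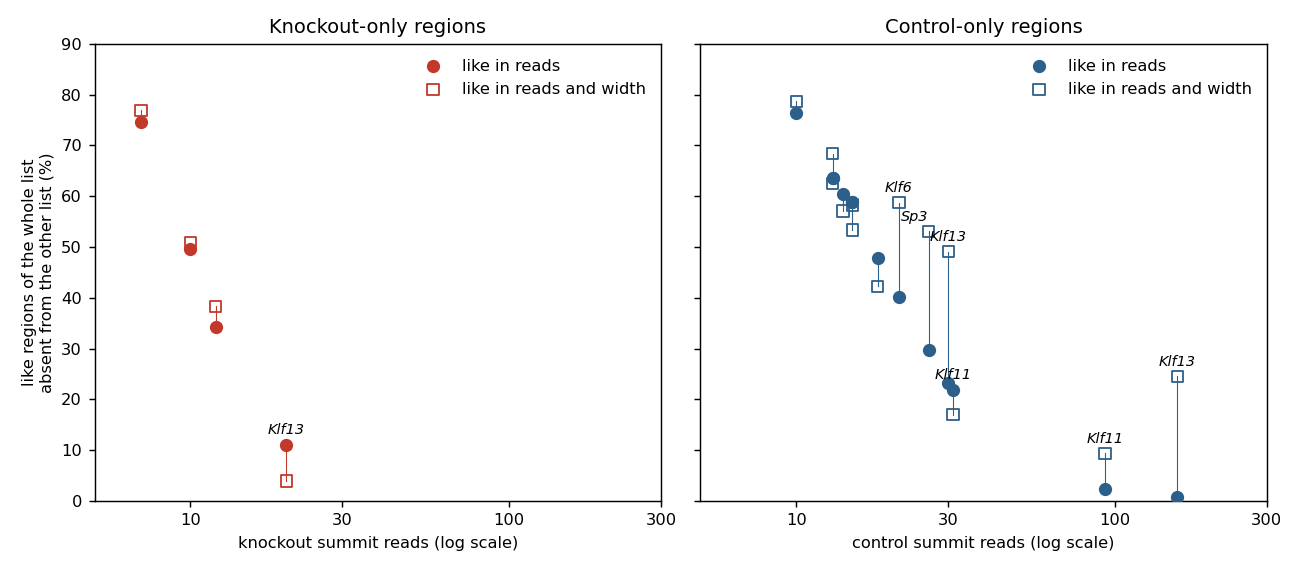
For each knockout-only (left) and control-only (right) region near a KLF or Sp gene, its summit reads (log scale) and the percentage of regions like it in the whole list that were absent from the other list, matched on reads (filled circles) or on reads and width (open squares). The percentage falls with reads, to 2.32% for the control-only Klf11 region with 93 reads and 0.791% for the Klf13 region with 157, which rises to 24.5% when width is matched.

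The other 16 genes of the family had 66 regions within 40 kb, of which 3 were near both Sp7 and Sp1 and so belonged to the 40 as well. The other 63 comprised 43 shared, 6 knockout-only and 14 control-only regions. Those 43 had a median log2 ratio of 0.16 (SD 0.44), beside 0.12 (SD 0.41) for the 23 shared regions near the 10 genes and 0.00 (SD 0.46) over all 18481 shared regions. A gene-end region was listed in both libraries for 6 of the 16, in the knockout alone for Klf12 with 9 reads, and in neither for 9, namely Klf8, Klf14, Klf15, Klf17, Sp2, Sp5, Sp6, Sp8 and Sp9. At Klf1 there were 110 summit reads in the knockout and 183 in the control, a scaled ratio of 0.939 (0.734 to 1.20). The highest gene ends of this list were Sp4, with 593 and 897 reads, and Klf16, with 401 and 550. None of the 6 had an interval that left out 1.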

How the data were processed

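Each library had 1 deposited peak list in narrowPeak format, called per sample. Per the submitters' processing notes, the tools were MACS2 2.2.7.1, deepTools 3.5.1, Picard 2.26.2, Bowtie2 2.4.4 and Trimmomatic 0.39, with build mm10; no settings are given. The deposited fold (a ratio) is the summit pileup plus 1 over the local background plus 1, and the deposited −log10 p-value and q-value compare the same quantities. The score the authors deposited restates the q-value and was not used.

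Summit reads are the whole number that yields both the deposited fold and −log10 p (largest relative misfit 7.2e-06 in the knockout and 7.3e-06 in the control). Tested on 2000 simulated peaks per library, 100.0% came back in each. Relative depth was the ratio of the lowest backgrounds, 0.971 in the knockout and 1.52 in the control, which assumes like read extension; absolute depth is unknown. The highest peak of a library stood for its region, and peaks above 3000 reads got no ratio. The 95% intervals (exact Poisson for reads, exact conditional binomial for ratios, Clopper-Pearson for shares) cover counting error only, and no source mentions molecular identifiers. Python 3.11.15 was used with SciPy 1.17.1, NumPy 2.4.6, matplotlib 3.10.9 and pandas 2.3.3. Genes, lists and settings were chosen with earlier results of these data known. The rule named every gene-end region, ratios of 2 or more or 0.5 or less, one-list regions of at least 20 reads and the strongest region of each gene; other regions were named after their values were seen.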

Additional observations from a re-analysis of the deposited data

How the results depend on the processing

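Window, threshold, overlap and depth settings were changed one at a time. Of 23 such recomputations of shares, counts and medians, including those with deposited folds, 20 stayed within the counting interval or within 1.5 times the count. The other 3 were the total of 40 regions, which became 20 with a window of 10 kb and 77 with 100 kb, and the control-only share, which was 5.56% with 11174 top peaks from each list. In that setting the knockout-only regions were the Klf4 gene end and the region beyond Klf11, whose control peaks fell below the higher limit set for the longer list (−log10 q of 27.3, against 16.7 in the knockout). Leaving out Klf13 and leaving out regions over another promoter, both chosen after seeing the data, gave control-only shares of 31.0% and 37.1%; all 5 recomputations of that kind stayed within the interval. The knockout-only share without Klf13 was 3.45% (1 of 29 regions). Among ratios of single regions, that of Klf6 moved out of its interval when deposited folds were used. No paired analysis was possible because each genotype had 1 library and the replicate numbers differ. Absence from a list cannot be told from a miss at low counts.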

Other observations

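Genes that work with KLF and Sp proteins were described by their strongest region within 1 kb of a gene end. Of 17 such genes, 12 had one in both lists and 5 in neither, with a median log2 ratio of 0.05 over the 12. Among 9 corepressors and coactivators, the histone deacetylase gene Hdac2 had 240 summit reads in the knockout and 257 in the control, a scaled ratio of 1.46 (1.22 to 1.75). Crebbp, a histone acetyltransferase gene, had 132 and 151 (1.37, 1.07 to 1.74). Ctbp1, the partner of Klf3, had 112 and 262, and its ratio of 0.668 (0.530 to 0.836) had an interval below 1. Sin3a, the partner of Klf10, Klf11 and Klf13, had 518 and 738 (1.10, 0.978 to 1.23). These 4 were named after their values were seen. Upstream of Klf2, the kinase gene Mapk7 had 182 and 263 reads (1.08, 0.890 to 1.31) and Mef2d 258 and 411 (0.980, 0.836 to 1.15). Besides their shared regions, Mef2d had a gene-end region in the control list alone with 67 reads, and the coactivator gene Kat2b one in the knockout list alone with 29. S1pr1, a lymphocyte exit receptor gene that Klf2 activates in T cells, had 76 and 119 (0.997, 0.738 to 1.34), and Itgb7 had no gene-end region in either list.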
